A study of Mus musculus with 3 samples.

Results

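The 10 genes described here encode the metallothioneins Mt1 and Mt2, the stress enzymes heme oxygenase 1 (Hmox1) and NAD(P)H quinone dehydrogenase 1 (Nqo1), thioredoxin reductase 1 (Txnrd1), sulfiredoxin 1 (Srxn1), both subunits of glutamate-cysteine ligase (Gclm and Gclc) and the superoxide dismutases Sod1 and Sod2. They were picked by gene symbol from the 56748 genes of the count table, and all 10 were found and had counts in every library. RNAseq had been performed on adult cardiomyocytes (ACMs) from hearts of wild-type (WT) mice aged 8 to 10 weeks, which were cultured and then kept for 16 h with mouse OSM (10 ng/mL), with human IL6 (10 ng/mL) or with vehicle (0.1% BSA). The medium of all cultures, controls included, was M199 without serum and held BSA (0.1%), the contraction inhibitor BDM (10 mM), insulin-transferrin-selenium and CD lipid. RNA samples were pooled before sequencing, each condition was 1 library, and there is no replicate spread. Every interval below is a 95% counting interval only, every difference is between libraries and not tested between conditions, and no P-value can be given.

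Metallothioneins are small cysteine-rich proteins that bind zinc and copper, and their genes are known to respond to metals through the factor MTF1 at metal response elements and to IL-6 family cytokines in other tissues such as liver. Most of the other genes are known targets of the factor NRF2 (Nfe2l2), which KEAP1 holds back until oxidants or electrophiles are present and which acts at antioxidant response elements. In the heart these enzymes limit damage from superoxide and peroxides made by mitochondria, and OSM and IL6 signal through receptor complexes that share gp130 and activate STAT3.

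The promoters of Mt1 and Mt2, the genes called higher with OSM, and of Srxn1, which had the most antioxidant response element cores of the members with an entry, are shown from 250 bases before to 50 bases after the RefSeq transcription start (RefSeq, GRCm38.p6, forward strand of the chromosome and of the gene, 5′ to 3′). Their positions were chr8:94178839-94179138 for Mt1, chr8:94172368-94172667 for Mt2 and chr2:152105274-152105573 for Srxn1. Capitals mark matches on either strand to the metal response element core TGCACNC or TGCGCNC, the antioxidant response element core TGACNNNGC or TGAGNNNGC, or the STAT site TTCNNNGAA.
Mt1: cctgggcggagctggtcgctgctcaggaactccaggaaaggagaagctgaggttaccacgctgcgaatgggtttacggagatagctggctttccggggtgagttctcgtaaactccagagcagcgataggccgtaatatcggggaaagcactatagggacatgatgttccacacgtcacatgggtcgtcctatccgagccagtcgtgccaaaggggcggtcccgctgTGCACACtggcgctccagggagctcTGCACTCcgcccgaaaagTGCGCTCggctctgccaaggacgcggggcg
Mt2: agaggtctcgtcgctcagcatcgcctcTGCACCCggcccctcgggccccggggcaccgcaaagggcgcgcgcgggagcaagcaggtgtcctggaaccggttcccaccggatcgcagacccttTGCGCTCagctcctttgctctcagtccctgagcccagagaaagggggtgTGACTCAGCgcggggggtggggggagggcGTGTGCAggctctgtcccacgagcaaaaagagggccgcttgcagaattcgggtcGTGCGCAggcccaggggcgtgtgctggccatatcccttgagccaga
Srxn1: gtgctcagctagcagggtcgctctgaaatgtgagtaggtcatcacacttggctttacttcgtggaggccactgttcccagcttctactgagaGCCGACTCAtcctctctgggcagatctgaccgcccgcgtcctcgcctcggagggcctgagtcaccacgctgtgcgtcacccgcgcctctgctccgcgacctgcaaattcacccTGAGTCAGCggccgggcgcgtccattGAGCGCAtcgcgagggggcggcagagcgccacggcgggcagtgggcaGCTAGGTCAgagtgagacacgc

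Mt1 had 3 metal response element cores and Mt2 had 4, together with 1 antioxidant response element core. Of all 32851 RefSeq promoter windows of the same 300 bases, 1.97% had at least 3 metal response element cores and 0.517% had at least 4. Srxn1 had 1 metal response element core and 3 antioxidant response element cores, and 0.630% of all windows had at least 3 of the latter. A promoter entry was matched for 8 of the 10 genes, and those of Hmox1 and Gclc are not shown. The cores of Gclm, 3 for metal response elements and 1 for antioxidant response elements, included a metal response element core that overlapped the antioxidant core. At least 1 antioxidant response element core was held by 27.8% of all windows and at least 1 metal response element core by 25.7%. Sod1 had 1 antioxidant response element core, as did 1 of the windows of Txnrd1, and the window of Nqo1 matched none of the letters searched. STAT sites, which 8.30% of all windows held, were matched in Sod2 and in 2 of the windows of Txnrd1, and in neither metallothionein. A match of letters is a description of these windows and not a binding site, and binding was not measured.

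**Figure D1:**
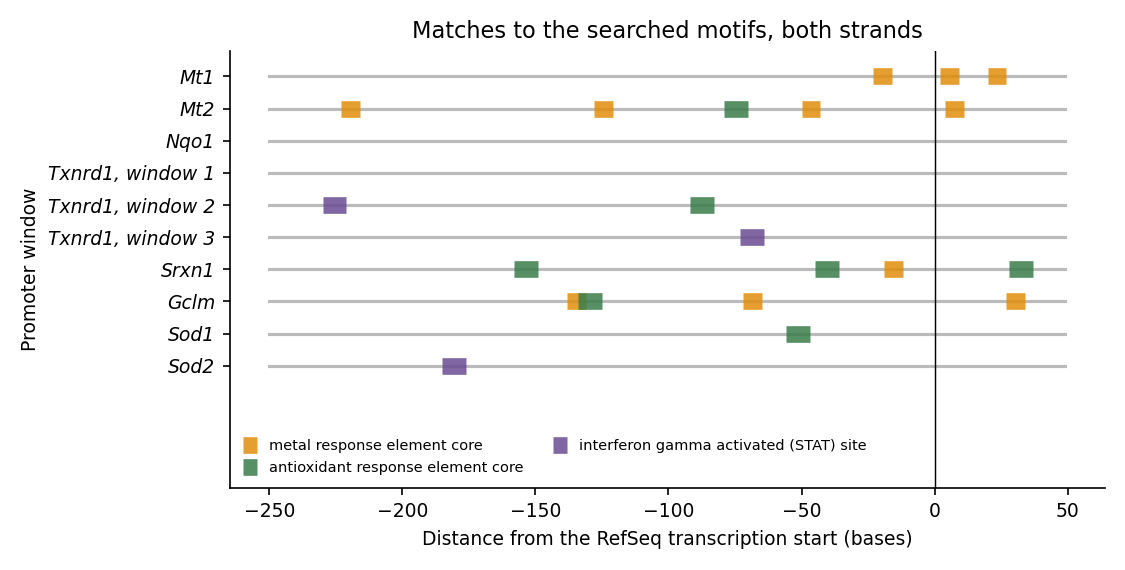
Position in bases from the RefSeq transcription start (x axis) of the matches to the 3 searched motifs in the 10 promoter windows of 8 genes (y axis), with grey lines for the 300 bases searched. The 3 metal response element cores of Mt1 lay from 23 bases before to 26 bases after the start, and the 4 of Mt2 were spread from 223 bases before to 10 bases after it.

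The libraries had 24939980 counts (vehicle), 26362446 (IL6) and 30773001 (OSM). The 10 genes took 0.586%, 0.591% and 0.904% of them. Socs3, a feedback inhibitor induced by STAT3, had 670 counts with vehicle, 646 with human IL6 and 18194 with OSM, so the cells of the IL6 library did not have the Socs3 level seen with OSM. The 10 cardiomyocyte markers were all detected, with a summed level of 42559 to 44768 CPM (counts scaled to library depth). With OSM 2 of them were called lower, the long genes Ryr2 (22606, 23555 and 9264 counts, log2 fold change -1.53) and Ttn (18901, 20398 and 7191, -1.64). Tnni3 was at 0.68, Myl2 at 0.62, Tnnt2 at 0.42, Mb at 0.40 and Actc1 at 0.14. Myh6 was at -0.04, Pln at -0.08 and Atp2a2 at -0.37. The part of these differences in the members' values was not tested beyond the comparison with genes of similar length given below. Summed levels were 37.8 to 40.2 CPM for endothelial, 5.46 to 6.37 for fibroblast, 9.38 to 14.0 for smooth muscle and pericyte and at most 0.455 for T cell markers. The 9 macrophage markers summed to 23.7 CPM with vehicle, 24.0 with IL6 and 54.4 with OSM. Of these, Fcgr1, C1qa, C1qb and Ptprc were at 0 in all libraries, and Cd68, which also encodes a lysosomal protein, accounted for most of the difference with 382, 448 and 1419 counts. In bulk RNA, a change in the share of a cell type and a change in RNA per cell cannot be told apart. Mitochondrially encoded transcripts took 17.4%, 16.1% and 13.6% of the counts, and the part of this shift in the results was not tested.

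Both metallothioneins rose with OSM. Mt1 (ENSMUSG00000031765) lies on chromosome 8 from 94905710 to 94906955 on the forward strand (GRCm39, as for every gene position below), 5513 bases beyond the end of Mt2 (ENSMUSG00000031762; 94899292 to 94900196, forward strand). The level of Mt1 was 393 FPKM (fragments scaled to gene length and library depth) with vehicle, 436 with IL6 and 1081 with OSM, from 12390, 14706 and 40244 counts. The OSM library was thus well above the other two, and with OSM Mt1 became the highest of the 10 genes on the FPKM scale, after standing below Hmox1 and Srxn1 with vehicle. Per kb of main transcript (762 bases for Mt1 in place of 1246) Mt1 was already first with vehicle, at 652 CPM per kb against 555 for Hmox1. After scaling by trimmed mean of M values (TMM), Mt1 was 2.75-fold higher with OSM than with vehicle, a log2 fold change of 1.46 (interval 1.43 to 1.49).

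Mt2 was low in comparison, at 12.3 FPKM with vehicle, 16.0 with IL6 and 48.6 with OSM, from 183, 255 and 854 counts. With OSM it had the largest log2 fold change of the 10, 1.98 (1.75 to 2.22), or 3.95-fold. Mt1 has no exon base shared with another annotated gene, whereas 82.4% of the exon bases of Mt2 (GENCODE M39) are covered by exons of the lncRNA Gm45774 on the opposite strand. Gm45774 itself had 2, 5 and 13 counts. Whether the authors' counting used the strand is not given in the sources used here, so the level of Mt2 is uncertain, and the part of the overlap in its fold change was not tested.

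A gene is called higher or lower when its whole interval lies beyond 2-fold, and for OSM against vehicle 3.74% of the 15537 genes compared were called higher and 5.43% lower. Mt1 and Mt2 were the 2 of the 10 genes called higher with OSM, and 0 were called lower. Mt1, which had more counts, changed less: there were 67.7 (58.5 to 78.8) Mt1 counts per Mt2 count with vehicle, 57.7 (51.0 to 65.5) with IL6 and 47.1 (44.0 to 50.5) with OSM. This ratio needs no scaling between libraries, and the log2 fold change of Mt2 exceeded that of Mt1 by 0.52 (0.29 to 0.75). The part of the overlap with Gm45774 in the ratio was not tested.

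**Figure D2:**
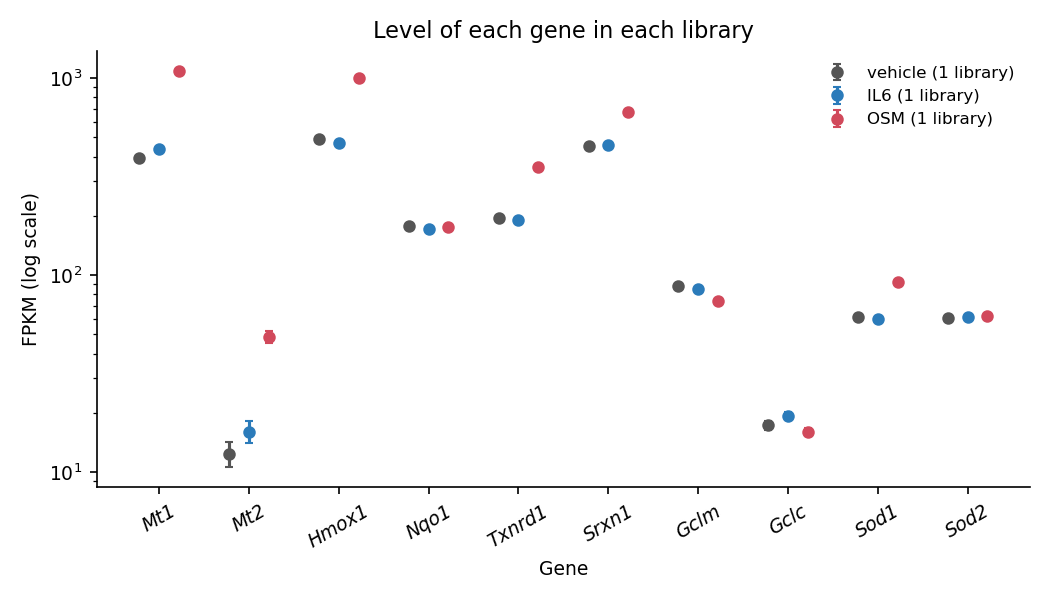
Level of each of the 10 genes in FPKM on a log scale (y axis) in the vehicle, IL6 and OSM libraries (1 point each), with 95% counting intervals as bars where they are wider than the point. The OSM points stand above both others for Mt1 (1081 FPKM), Mt2 (48.6), Hmox1 (997), Txnrd1 (354), Srxn1 (672) and Sod1 (92.1), and below them for Gclm (74.3) and Gclc (16.0).

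Hmox1 and Nqo1, both known NRF2 targets, differed from each other. Hmox1 (ENSMUSG00000005413, chromosome 8, 75820249 to 75827217, forward strand) encodes the enzyme that splits heme into biliverdin, carbon monoxide and iron. Its level was 493 FPKM with vehicle, 466 with IL6 and 997 with OSM (21824, 22097 and 52131 counts). On the FPKM scale Hmox1 was the highest of the 10 genes with vehicle and the second with OSM. The ratio of OSM to vehicle was 2.02-fold (1.99 to 2.05), so that its interval reached just below the 2-fold limit and Hmox1 was not called (log2 fold change 1.01, interval 0.99 to 1.04). Against IL6 it was called higher with OSM, at 1.10 (1.07 to 1.12) on the log2 scale.

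Nqo1 (ENSMUSG00000003849, chromosome 8, 108114857 to 108129838, reverse strand) encodes an enzyme that reduces quinones by 2 electrons. It stood at 178, 172 and 176 FPKM with vehicle, IL6 and OSM (6982, 7235 and 8184 counts), with a log2 fold change of -0.01 (-0.06 to 0.03) for OSM against vehicle. The counts of Hmox1 per count of Nqo1 were 3.13 (3.04 to 3.21) with vehicle, 3.05 (2.97 to 3.14) with IL6 and 6.37 (6.22 to 6.52) with OSM. The difference in log2 fold change between these genes was 1.03 (0.98 to 1.08) for OSM against vehicle. Macrophages also make Hmox1, and the markers on the macrophage list went different ways with OSM. Cd68 moved in the same direction as Hmox1, while Csf1r (187, 166 and 209 counts) was at -0.08 (-0.37 to 0.21). On few counts, Lyz2 (13, 4 and 31) was at 1.01, Mrc1 (2, 14 and 8) at 1.76 and Adgre1 (8, 0 and 6) at -0.66. The part of macrophages in the Hmox1 value was not tested.

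The thioredoxin system genes were higher with OSM by less than 2-fold. Txnrd1 (ENSMUSG00000020250, chromosome 10, 82669785 to 82733546, forward strand), the cytosolic selenoenzyme that reduces thioredoxin with NADPH, had the most counts of the 10 genes in every library. Its level was 196 FPKM with vehicle, 191 with IL6 and 354 with OSM (35048, 36692 and 74864 counts), a log2 fold change of 0.85 (0.84 to 0.87) with OSM. By counts Txnrd1 ranked at place 59 of all genes with vehicle and 35 with OSM.

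Srxn1 (ENSMUSG00000032802, chromosome 2, 151947436 to 151953296, forward strand), which repairs overoxidized peroxiredoxins and had the 3 antioxidant cores printed above, was at 455, 459 and 672 FPKM (32440, 35111 and 56633 counts). The log2 fold change was 0.56 (0.54 to 0.58), with the IL6 library level with vehicle. Inside each library there were 1.08 Txnrd1 counts per Srxn1 count with vehicle, 1.05 with IL6 and 1.32 with OSM, so the fold change of Txnrd1 exceeded that of Srxn1 by 0.29 (0.26 to 0.32) on the log2 scale. No exon base of Txnrd1 is shared with another gene.

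Both subunits of glutamate-cysteine ligase were slightly lower with OSM. Gclc (ENSMUSG00000032350, chromosome 9, 77661817 to 77701767, forward strand), the catalytic subunit of the rate-limiting enzyme, was low, at 17.3 FPKM with vehicle, 19.3 with IL6 and 16.0 with OSM (1645, 1969 and 1801 counts). The log2 fold change in OSM against vehicle was -0.11 (-0.21 to -0.01). Gclm (ENSMUSG00000028124, chromosome 3, 122039206 to 122064381, forward strand), the modifier subunit, was at 88.1, 85.2 and 74.3 FPKM (14018, 14520 and 13952 counts), a log2 fold change of -0.25 (-0.28 to -0.21). These 2 genes had their intervals below no change with OSM, and neither reached 2-fold.

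The counts of Gclm per count of Gclc were 8.52 (8.10 to 8.97) with vehicle, 7.37 (7.03 to 7.73) with IL6 and 7.75 (7.38 to 8.14) with OSM. The lower ratio in the IL6 library went with the higher level of Gclc there, and the log2 fold change of Gclm lay below that of Gclc with IL6 by -0.21 (-0.31 to -0.11).

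The superoxide dismutases parted with OSM in scaled counts, and much less so against genes of similar length. Sod1 (ENSMUSG00000022982, chromosome 16, 90017642 to 90023217, forward strand), the copper and zinc enzyme of the cytosol, had 61.6 FPKM with vehicle, 60.2 with IL6 and 92.1 with OSM (6189, 6476 and 10923 counts). Sod2 (ENSMUSG00000006818, chromosome 17, 13225733 to 13258950, forward strand), the manganese enzyme of mitochondria, had 60.8, 61.5 and 62.3 FPKM (15387, 16684 and 18609 counts). By the authors' gene lengths, the levels of these genes overlapped in their intervals with vehicle and with IL6 and differed with OSM. Per kb of main transcript, where Sod2 is 5983 bases long in place of 10008, Sod2 stood above Sod1 in every library (103 against 46.7 CPM per kb with vehicle). The main Sod1 transcript is longer than the authors' length (5315 against 3970 bases), which lowers its value per kb.

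For Sod1 the log2 fold change with OSM was 0.58 (0.53 to 0.62). For Sod2 it was 0.03 (0.00 to 0.06), and its sign turned to -0.03 when the libraries were scaled by their total counts. There were 0.402, 0.388 and 0.587 Sod1 counts per Sod2 count, and the difference in log2 fold change was 0.55 (0.49 to 0.60) for OSM against vehicle. The gene Scaf4 on the opposite strand covers 48.8% of the exon bases of Sod1, and 79.3% of its main transcript, and had 828, 1068 and 912 counts. Of the main Sod2 transcript, 57.2% has a copy elsewhere in the genome with at least 97% identity, against 11.5% for Sod1 and at most 4.24% for the others. How the authors' counting treated such reads is not given in the sources used here, so the levels of both dismutases are uncertain. The part of the overlap and of the copies in their fold changes and in their ratio was not tested.

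**Figure D3:**
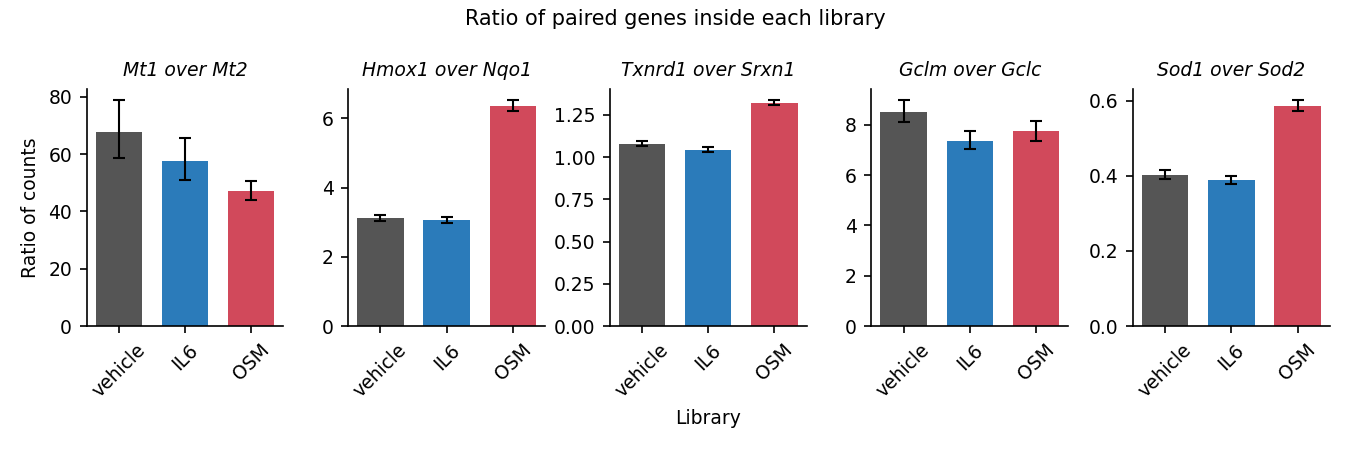
Counts of 1 gene per count of another inside each library (y axes, a separate scale from 0 for each pair), as bars with 95% counting intervals. The OSM library stands apart for Hmox1 over Nqo1 (6.37 against 3.13 with vehicle) and for Sod1 over Sod2 (0.587 against 0.402), while Mt1 over Mt2 was lowest with OSM (47.1). The ratios are not adjusted for the change of OSM values with gene length or for the exon overlaps of Mt2 and Sod1 with other genes.

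Across the 10 genes, the median log2 fold change for OSM against vehicle was 0.57, with a range of -0.25 to 1.98, against a median of 0.00 over all genes compared. The interval lay above no change for 7 of them (Mt1, Mt2, Hmox1, Txnrd1, Srxn1, Sod1 and Sod2), where 33.4% of all genes compared had such an interval, and below it for Gclc and Gclm, where the share of all genes was 33.1%. Nqo1 was the 1 gene whose interval held no change. Sod2 was at the edge: under the other scalings tried its interval held no change and 6 genes lay above, and with scaling by total counts Nqo1 lay below no change as well (3 genes).

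The OSM to vehicle ratio varied with gene length in these libraries, so each gene was also set against the 500 protein-coding genes nearest to it in length. Their medians for OSM against vehicle ranged from 0.53 for the neighbours of Mt2 to -0.40 for those of Sod2. Relative to them the log2 fold changes were 1.45 for Mt2, 1.06 for Txnrd1, 0.99 for Mt1, 0.62 for Hmox1, 0.51 for Sod1, 0.43 for Sod2, 0.31 for Srxn1, -0.17 for Gclm, -0.23 for Gclc and -0.45 for Nqo1. On this scale Mt2 and Txnrd1 lay beyond 2-fold and the interval of Mt1 (0.96 to 1.02) did not. The median over the 10 genes on this scale was 0.47.

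With human IL6 the levels stayed close to vehicle. Of the 10 genes, 0 were called higher and 0 lower for IL6 against vehicle, where 1.77% and 1.74% of the 15472 genes compared were. The median log2 fold change was -0.01 and the range -0.08 to 0.38. Mt2 stood highest, at 0.38 (0.10 to 0.66), followed by Gclc at 0.16 (0.06 to 0.25) and Mt1 at 0.15 (0.11 to 0.18). These 3 had their intervals above no change, as did 19.6% of all genes. Hmox1, at -0.08 (-0.11 to -0.05), Nqo1, Gclm and Txnrd1 had theirs below, as did 19.1% of all genes. With scaling by total counts 5 lay above and 1, Hmox1, below.

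The vehicle library serves in both of these comparisons, so their values are given side by side and not correlated. Set directly against IL6, the OSM library had 3 of the 10 genes called higher and 0 called lower, where 4.24% and 5.42% of the 15544 genes compared were called. These were Mt2 at 1.60 (1.40 to 1.81), Mt1 at 1.31 (1.28 to 1.34) and Hmox1. Txnrd1 followed at 0.89 (0.87 to 0.91), Sod1 at 0.61 (0.57 to 0.66) and Srxn1 at 0.55 (0.53 to 0.57). Gclc was at -0.27 (-0.36 to -0.18) and Gclm at -0.20 (-0.23 to -0.17), while the intervals of Nqo1 and Sod2 held no change (Sod2 lay below it, at -0.07, with scaling by total counts).

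**Figure D4:**
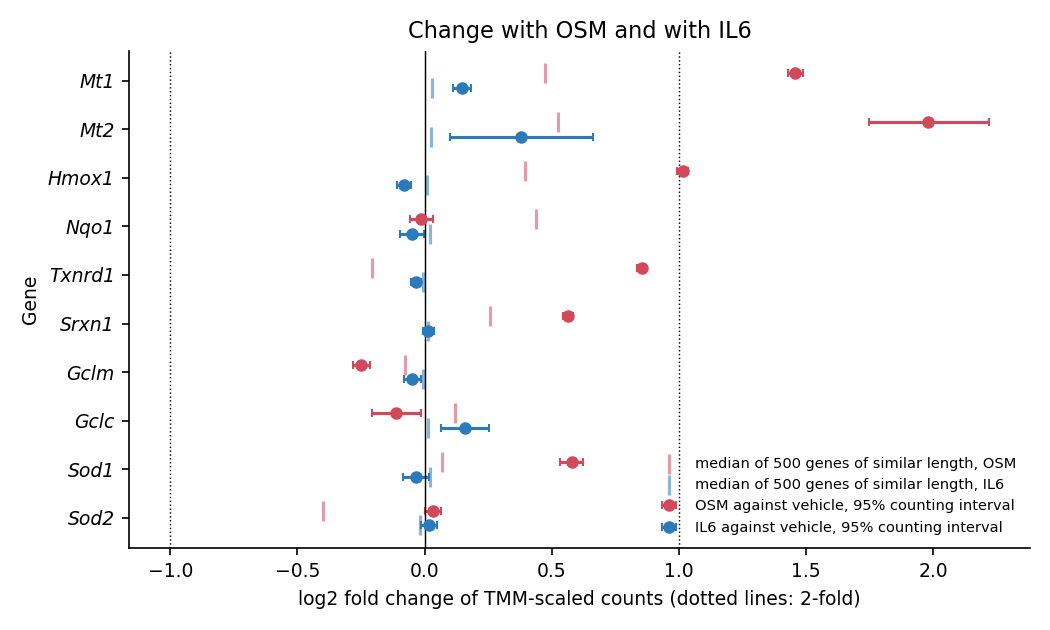
Log2 fold change of TMM-scaled counts (x axis) for OSM (red) and IL6 (blue) against vehicle in each of the 10 genes (y axis), with 95% counting intervals, dotted lines at 2-fold and short vertical marks at the median of 500 genes of similar length. With OSM, Mt1 (1.46) and Mt2 (1.98) lie wholly beyond 2-fold, Hmox1 (1.01) lies at the line, and with IL6 all 10 lie between -0.08 and 0.38.

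The order of the levels was compared per length and depended on the length used. By the authors' gene lengths (FPKM), with vehicle it ran from Hmox1 through Srxn1, Mt1, Txnrd1, Nqo1, Gclm, Sod1, Sod2 and Gclc down to Mt2, and Sod1 and Sod2 were the only neighbours whose intervals overlapped. The same order held with IL6 apart from Sod1 and Sod2, which changed places within their intervals, and there Hmox1 and Srxn1 overlapped as well. With OSM, Mt1 came first, Sod1 stood above Gclm, Mt2 stood above Gclc, and no neighbours overlapped. The main transcript differs from the authors' length for several members, such as Srxn1 (7203 against 2820 bases) and Txnrd1 (3325 against 7086). Per kb of main transcript, a measure added after the values were seen, Mt1 came first in every library, followed by Hmox1, Txnrd1 and Srxn1, and Mt2 was last with vehicle and with IL6 and stood above Gclc with OSM. The counts were made over the authors' exons, and some main transcripts are longer than these. Examples are Srxn1, Nqo1 (2671 against 1553 bases) and Sod1 (5315 against 3970). Bases that were not counted lower the value per kb, so the places of such genes on this scale are uncertain.

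Among all 8627 protein-coding genes with at least 1 FPKM in every library, those nearest to a member by the distance between their pairs of log2 fold changes (OSM and IL6 against vehicle, 3 libraries) were listed for the 3 genes called in any comparison. Nearest to Mt1 were Fos, an AP-1 subunit, at a distance of 0.0247, then Cystm1, Nkain1, Rnf19b and Rassf1, up to 0.0501. Around Mt2 the neighbours were sparser, with Rin1 at 0.219, the kinase gene Pim3 at 0.226, Fosl1, Ip6k3 and the caveolin gene Cav3 at 0.237. Hmox1 had Tnfrsf1a, a receptor for tumour necrosis factor, at 0.0105, then Carhsp1, Tubb4b, Cltb and Tmbim1, up to 0.0405. This is a likeness over 3 libraries that share the vehicle library, and the ranking describes the members only.

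Other genes of these pathways, taken from 11 fixed lists with 124 entries, mostly stayed within 2-fold. For OSM against vehicle, 3 of 107 compared were called higher and 4 lower, with a median log2 fold change of 0.16. These are 2.80% and 3.74%, below the 3.74% and 5.43% of all genes. Against the genes of similar length the median was -0.01. For IL6 against vehicle, 0 of 109 were called, where 1.77% of all genes were higher and 1.74% lower, and the median was 0.03. The lists and the 10 genes were chosen with earlier results known, so these counts describe the libraries.

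Around the metallothioneins, 5 genes of metal handling were compared, and Mt3, another metallothionein gene, was called higher with OSM on few counts (6 with vehicle, 24 with IL6 and 35 with OSM, log2 fold change 2.30, interval 1.04 to 3.84). In so short a list this call is 20%, where 3.74% of all genes were called higher. For IL6 against vehicle, Mt3 was at 1.90 (0.57 to 3.48) and not called. For OSM against IL6 it was at 0.40 (-0.39 to 1.22), an interval that held no change. Outside the naming rule, the other 4 genes compared went both ways in OSM against vehicle. The zinc importer gene Slc39a14 had 2881, 2969 and 4761 counts (0.48, interval 0.42 to 0.55) and Slc39a10 was at 0.06, while the factor gene Mtf1 was at -0.34 and the zinc exporter gene Slc30a1 at -0.22.

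Among 8 regulators of NRF2, 0 were called, where 3.74% of all genes were called higher and 5.43% lower. The median was 0.08, or 0.02 against genes of similar length. Sqstm1, which binds KEAP1 in autophagy, had 134960, 148692 and 170622 counts (log2 fold change 0.10 with OSM), and the related factor gene Nfe2l1 had 30276, 32448 and 29284 (-0.29). Also named after their values were seen, Nfe2l2 itself was at 0.16 (0.10 to 0.22), Keap1 at -0.13 (-0.22 to -0.04) and the small MAF gene Maff at 0.92 (0.67 to 1.18).

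Beside Hmox1, the heme and iron list had the highest median, 0.53, with 6 of 7 intervals above no change, against 33.4% of all genes. Against genes of similar length this median was 0.40. Of the 7 genes, 0 were called, where 3.74% of all genes were called higher and 5.43% lower. The ferritin subunit genes were close to Hmox1: Ftl1 had 4363, 4959 and 10469 counts (log2 fold change 1.02, interval 0.97 to 1.07) and Fth1 had 66235, 72151 and 138612 (0.82, interval 0.81 to 0.84). The 13 thioredoxin and peroxiredoxin genes beside Txnrd1 and Srxn1 ranged from 0.08 to 0.69, with a median of 0.36, 10 intervals above no change (33.4% of all genes) and 0 below (33.1%). Against genes of similar length their median was 0.15, and 9 of the 13 stood above them. Prdx6 was at 0.09 and Prdx3, the mitochondrial peroxiredoxin, at 0.22 in OSM against vehicle.

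Glutathione genes beside Gclc and Gclm had a median of 0.12 over 11 compared (0.08 against genes of similar length). Of the 11, 0 were called, where 3.74% of all genes were called higher and 5.43% lower. Among the same 11, 5 had intervals above no change and 3 below, where 33.4% and 33.1% of all genes compared did. Slc3a2, a subunit of the cystine transporter, was at 0.42 and Chac1, which degrades glutathione, at -0.02. Named after their values were seen, the glutaredoxin gene Glrx had 632, 734 and 1620 counts (1.12, interval 0.98 to 1.25), glutathione reductase (Gsr) was at 0.51, glutathione synthetase (Gss) at 0.39 and the cystine transporter's other subunit, Slc7a11, at -0.71 (-0.80 to -0.62). Of 19 glutathione S-transferase genes, 0 were called higher and 1 lower, Gsta3, on 55, 51 and 18 counts (-1.85, interval -2.71 to -1.06, also named after its values were seen). The share called lower was 5.26%, near the 5.43% of all genes, and 3.74% of all genes were called higher. The list median was 0.19, and -0.16 against genes of similar length. Gstm1 was at 0.35 and Gsta4 at -0.13.

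Beside the dismutases, 10 peroxide and superoxide genes had a median of 0.16. Against genes of similar length their median was -0.08, and 5 of the 10 stood above them. Of the 10, 0 were called, where 3.74% of all genes were called higher and 5.43% lower. Catalase (Cat), which splits hydrogen peroxide, had 17759, 19391 and 11827 counts (log2 fold change -0.83, interval -0.86 to -0.79), the opposite sign to Sod1, and Gpx4, which reduces lipid peroxides, had 15173, 16799 and 25394 (0.50, interval 0.47 to 0.53). The 12 NRF2 targets of detoxification that were compared, which stand beside Nqo1, had 1 called higher and 1 lower with a median of -0.01. Each call is 8.33% of the list, where 3.74% of all genes were called higher and 5.43% lower. Against genes of similar length the median was -0.17. The aldo-keto reductase gene Akr1b8 had 205, 158 and 904 counts (1.90, interval 1.68 to 2.12) and the efflux pump gene Abcc4 had 2883, 3327 and 1419 (-1.26, interval -1.36 to -1.17).

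**Figure D5:**
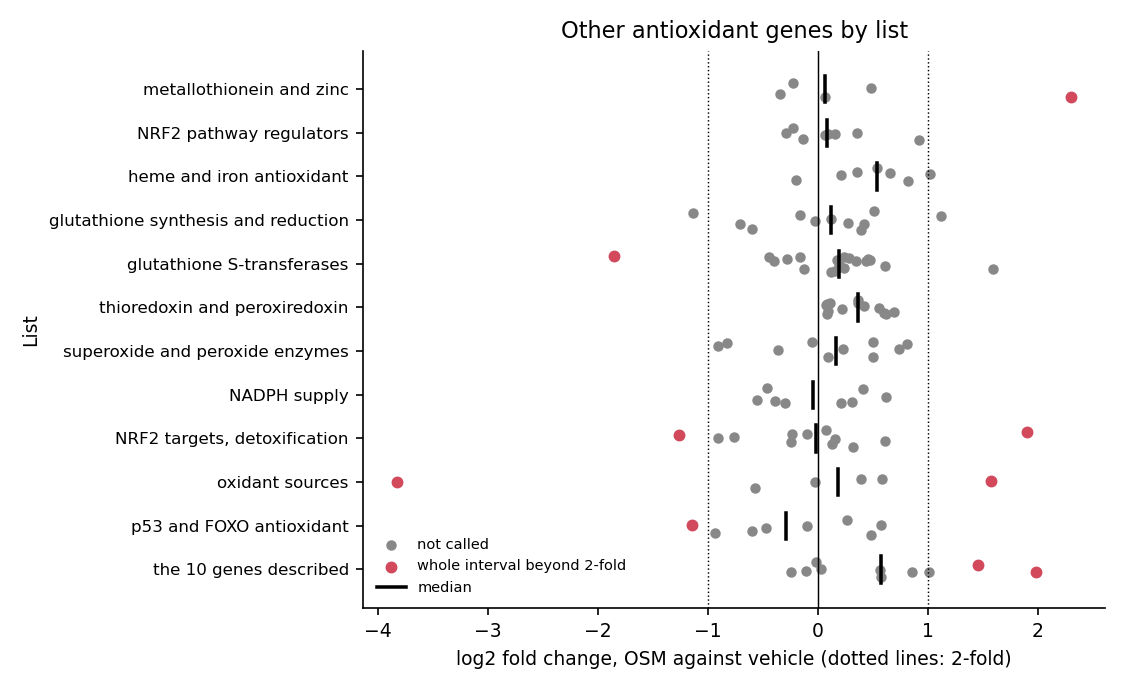
Log2 fold change for OSM against vehicle (x axis) of every compared gene in the 11 lists and of the 10 genes described (y axis), with grey points for genes not called, red points for genes called and black marks for medians. The 10 genes have the highest median (0.57, or 0.47 against genes of similar length), followed by the heme and iron list (0.53, or 0.40), and 3 list genes were called higher and 4 lower.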

How the data were processed

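Expression was measured by RNAseq in 3 libraries of pooled RNA from WT ACMs, 1 per condition. Groups were taken from the sample labels. The authors deposited whole-number counts per gene, not normalized, and FPKM values of the same genes, each count divided by gene length and a library constant. The submitters' processing notes name fastp, HISAT2 2.2.1, featureCounts 2.0.6, edgeR 4.0.16 and the build mm39 (GRCm39). Whether reads were counted by strand is not given in the sources used here. Every per-sample column was matched to a label (0 unmatched).

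TMM factors were computed per pair over all genes with edgeR 4.0.16 in R 4.3.3, and log2 fold changes are log2 ratios of TMM-scaled counts. Their 95% intervals are Clopper-Pearson intervals of the counts given their sum (scipy 1.17.1, pandas 2.3.3, Python 3.11.15). They cover counting error only. The minimum was 10 counts summed over both libraries, and calls required an interval entirely outside 2-fold. A count of 0 allows up to 3 counts per library, which is 0.120 CPM with vehicle, 0.114 with IL6 and 0.0975 with OSM. The scripts were tested on simulated data.

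The 10 members and the lists were chosen with earlier results of these data known. Named from each list were the called genes with at least 1 FPKM, at most 4, or otherwise the 2 with the highest FPKM; likeness was listed for the 5 nearest genes. Exon overlaps came from GENCODE M39, copies elsewhere from blastn 2.17.0 (matches of at least 50 bases), and promoters from RefSeq (GRCm38.p6), whose coordinates were kept apart from GRCm39.

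Alternatives were CPM, DESeq2 1.42.0 size factors, TMM on protein-coding genes, the FPKM ratio, no minimum count, subtraction of the median of 500 genes of similar length, the point estimate, a 1.5-fold limit, and edgeR's exact test at BCVs (biological coefficients of variation) of 0.2 or 0.4, which were assumed. TMM on genes with at least 10 counts, levels per kb of main transcript and list medians against genes of similar length were added after seeing the data.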

Additional observations from a re-analysis of the deposited data

How the results depend on the processing

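For OSM against vehicle, the number of members called higher went from 2 to 4 with the 1.5-fold limit, which added Hmox1 and Txnrd1, and to 0 with the edgeR exact test at an assumed BCV of 0.4. For OSM against IL6 it went from 3 to 1 after subtracting the median of genes of similar length, and to 0 at a BCV of 0.4. In both comparisons 2 were called at a BCV of 0.2. These BCVs were assumed, since no spread could be estimated. The share of all genes called under these alternatives is not given, so the counts describe the members only. Of 210 values of single members under the alternatives, 198 kept their direction and side of 2-fold, 3 passed it and 5 no longer did. The other 4 were below 2-fold and turned sign: Sod2 against vehicle (-0.03) and Sod2 (-0.07) and Nqo1 (-0.05) against IL6 by CPM, and Nqo1 against IL6 with similar length removed (-0.41). The 198 include all values without a minimum count, which could not differ from the main values because every member was above the minimum. Hmox1 lay at the limit. The FPKM ratio has no interval and was judged by its point value alone, so Hmox1 counted as past 2-fold against vehicle there (1.02). Its main value was 1.01, with an interval that reached below 2-fold. Against IL6 by CPM, where the whole interval had to lie beyond 2-fold, it fell short (1.02, interval 0.99 to 1.04). With similar length removed, Txnrd1 passed 2-fold against vehicle (1.06) and against IL6 (1.09), and Mt1 (0.86), Mt2 (1.10, interval 0.90 to 1.31) and Hmox1 (0.70) fell short against IL6; the cause was not tested. Over the scalings alone, OSM against vehicle ranged from 1.40 to 1.46 for Mt1 and from 1.92 to 1.98 for Mt2. No paired analysis was possible because each condition has 1 library, and leaving out a replicate was not possible for the same reason. Depth limited Mt2 most, with 183 counts in the vehicle library.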

Other observations

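The last 3 lists touch the chemistry that the 10 genes serve, and all values are from single libraries. Among 6 genes for sources of oxidants, Xdh, which encodes xanthine oxidoreductase, was called higher with OSM, with 483 counts with vehicle, 557 with IL6 and 1706 with OSM (log2 fold change 1.58, interval 1.43 to 1.73). Ncf1, an NADPH oxidase subunit gene named here after its values were seen, was called lower on 12, 8 and 1 counts. In so short a list each call is 16.7%, where 3.74% of all genes were called higher and 5.43% lower. Among 8 genes of the p53 and FOXO antioxidant list, Sesn3, a sestrin, was called lower with OSM, with 1906, 2086 and 1018 counts (-1.15, interval -1.26 to -1.04). This call is 12.5% of the list, against 5.43% of all genes. The list median was -0.29, and -0.25 against genes of similar length. The 8 genes of NADPH supply, on which Txnrd1 and Nqo1 draw, had 0 called, where 3.74% of all genes were called higher and 5.43% lower. Their median was -0.04, and -0.002 against genes of similar length. Of the 8 intervals, 4 lay above no change and 4 below, where 33.4% and 33.1% of all genes did. Taldo1 was at 0.62 and Idh2 at 0.31. Named after their values were seen, Me2 (-0.55), Idh1 (-0.46), Me1 (-0.39) and Tkt (-0.30) were the 4 below.

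Set against IL6 instead of vehicle, 2 of 107 list genes were called higher with OSM (Akr1b8 and Xdh) and 3 lower (Abcc4, Sesn3 and Gstt3, the last on 16 counts with IL6 and 0 with OSM and named after its values were seen). These are 1.87% and 2.80%, below the 4.24% and 5.42% of all genes.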
